A study of Homo sapiens with 6 samples.

Results

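The genes described here are 41 genes of the integrated stress response and the unfolded protein response, chosen by name from the 33841 genes listed in the count table. All 41 were found once by symbol and all 41 had enough counts to be among the 17144 genes tested. They were grouped by role into 4 genes of the stress sensors and XBP1, 7 stress transcription factors, 4 effectors and feedback genes of ATF4, 8 enzymes of serine, one-carbon, asparagine and cysteine synthesis, 3 genes of amino acid transporters, 12 chaperones and folding enzymes of the endoplasmic reticulum (ER) and 3 genes of ER-associated degradation.

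In the integrated stress response, kinases that sense lack of amino acids, unfolded protein in the ER, viral RNA or lack of heme phosphorylate the translation factor eIF2, which slows translation in general while the transcription factor ATF4 is made and switches on genes of amino acid supply. Unfolded protein in the ER is sensed by PERK (gene EIF2AK3), IRE1 (ERN1) and ATF6. PERK feeds into ATF4, IRE1 splices the mRNA of XBP1, and spliced XBP1 and cleaved ATF6 drive the genes of ER chaperones and of ER-associated degradation, the disposal of misfolded ER proteins.

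RNA was sequenced from LN229 cells, an established human glioblastoma cell line, as parental PARP3+/+ cells (WT) and as PARP3-/- cells, with 3 libraries per genotype that the study's text calls biological replicates and the labels number 1, 2 and 3. PARP3 is a mono-ADP-ribosyltransferase that takes part in DNA break repair, and it was disrupted with pairs of guides and a Cas9 nickase, after which single cells were grown into clones, so that a difference between genotypes can also be one between a clone and its parental population. The guides lie in exons 2 and 5 by the methods, whereas the series text gives a disruption from exon 2 to exon 9, and the sources used here do not name the clone that was sequenced. The methods give a medium with serum for LN229 cells in general, and not the culture conditions of each library. No stress agent is named for any library.

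The targeted gene, PARP3, was read with 1273, 942 and 995 counts in the 3 WT libraries and with 574, 1004 and 736 counts in the 3 PARP3-/- libraries, each in the order of the replicate numbers. In CPM (counts per 1000000 of the scaled library size) this is 27.2 ± 6.71 CPM in WT and 20.4 ± 1.90 CPM in PARP3-/- cells (SD, n = 3). PARP3-/- over WT differed by -0.42 on the log2 scale (SE 0.18, adjusted p = 0.307 by edgeR's quasi-likelihood test), and by -0.39 once the replicate number was a term of the model (adjusted p = 0.0469). The genotypes overlapped in the counts of this gene, and a deletion inside the gene leaves RNA of its other exons to be counted, so the RNA level alone does not check the labels. The libraries held 29692065 to 46010369 counts on genes. Of the glioma line markers, VIM stood at 3688 to 4382 CPM and NES at 698 to 1063 CPM, SOX2, OLIG2, EGFR and S100B were present in all 6 libraries, and GFAP and AQP4 were at or under 0.415 CPM. Of the markers of other cells, PTPRC, PECAM1, CDH5, EPCAM, CDH1 and RBFOX3 were at or under 0.110 CPM in every library. CD68 reached 0.531 CPM and VWF 0.712 CPM. The neuronal gene SNAP25 stood at 9.28 to 11.9 CPM over the 6 libraries. The neuronal gene SYT1 stood at 108, 45.5 and 43.6 CPM in WT and at 85.8, 51.2 and 52.6 CPM in PARP3-/- cells, highest in both libraries numbered 1. NES was lowest in the libraries numbered 1. Their part in the results below was not tested.

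Several of the members carry, in their promoters, the elements through which the unfolded protein response acts, and these are shown because most of the genes that carry them are the ER genes described below. The promoters were those of RefSeq (GRCh38.p14), from 250 bases before to 50 bases after the start of each gene, and 36 of the 41 members were matched by symbol. ALDH1L2, NUPR1, PSPH, SHMT2 and SLC7A11 were not matched. The ER stress response element (ERSE, which is CCAAT, 9 bases of any kind and CCACG, searched on both strands) was present in 6 of the 36, CALR, CANX, CRELD2, HSP90B1, HSPA5 and XBP1, and in 0.0806% of all 27305 promoters of this length. The related element ERSE-II (ATTGG, 1 base of any kind and CCACG) was present in HERPUD1, HYOU1 and SDF2L1, and in 0.0549% of all promoters. The members were chosen as genes of the response these elements serve, so the shares describe them and test nothing. The elements follow, each read 5′ to 3′ on the strand that carries it, with the fixed letters of the motif in capitals.
CALR ERSE: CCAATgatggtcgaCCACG
CANX ERSE: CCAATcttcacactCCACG
CRELD2 ERSE: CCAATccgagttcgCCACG
HSP90B1 ERSE, farther: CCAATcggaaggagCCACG
HSP90B1 ERSE, nearer: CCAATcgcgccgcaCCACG
HSPA5 ERSE: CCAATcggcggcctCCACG
XBP1 ERSE: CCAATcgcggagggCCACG
HERPUD1 ERSE-II: ATTGGgCCACG
HYOU1 ERSE-II, farther: ATTGGaCCACG
HYOU1 ERSE-II, nearer: ATTGGaCCACG
SDF2L1 ERSE-II: ATTGGtCCACG

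The ERSE of HSPA5 lay from base -66 to base -48 relative to the start of the gene (chr9:125241391-125241409), that of XBP1 from -52 to -34 (chr22:28800603-28800621), and the nearer of the pair in HSP90B1 from -89 to -71 (chr12:103930321-103930339). HERPUD1 carried its ERSE-II from -117 to -107 (chr16:56932025-56932035). The 250 bases before the start of HSPA5, which encodes the ER chaperone BiP, and of HYOU1, which encodes an ER chaperone of the same Hsp70 superfamily, are given on the strand of each gene, with every motif match in capitals over its whole length (chr9:125241344-125241593 and chr11:119057206-119057455, both genes on the reverse strand).
HSPA5: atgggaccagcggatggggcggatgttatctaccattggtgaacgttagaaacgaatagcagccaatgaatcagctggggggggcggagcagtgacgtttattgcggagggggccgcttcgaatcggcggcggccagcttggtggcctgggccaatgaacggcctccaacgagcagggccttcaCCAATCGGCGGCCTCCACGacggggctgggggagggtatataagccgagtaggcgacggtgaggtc
HYOU1: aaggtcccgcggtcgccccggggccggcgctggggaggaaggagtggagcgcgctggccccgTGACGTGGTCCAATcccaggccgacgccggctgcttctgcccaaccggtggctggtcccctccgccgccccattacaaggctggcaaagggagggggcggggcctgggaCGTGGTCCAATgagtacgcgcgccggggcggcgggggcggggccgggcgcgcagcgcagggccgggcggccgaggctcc

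The promoter of HYOU1 held ERSE-II at 2 places, both on the opposite strand, and the farther of them overlapped a match to the UPRE (TGACGTGG), the element bound by XBP1, which was found in 0.795% of all promoters and in no other of the 36 members. The CARE (TGATGNAA), the element of C/EBP and ATF proteins such as ATF4, was matched in 5 members, ASNS, ATF3, CHAC1, HERPUD1 and SLC3A2, and in 3.67% of all promoters. HERPUD1 alone of the 36 held both an ERSE-type element and a CARE. A match is a string of letters in this window and does not show that a factor was bound in these cells.

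The libraries numbered 1 differed from the other 4 in most of the 41 genes, and they did so in both genotypes. The levels of BiP, CHOP, HERPUD1, ERdj4 and TRIB3 were several times higher in replicate 1 of WT and of PARP3-/- cells than in replicates 2 and 3, whereas those of several enzymes and transporters of amino acids differed little. The replicate number was tested over both genotypes in a model with genotype (edgeR's quasi-likelihood test). The members had been chosen with earlier results of these data known. The replicate number passed at an adjusted p under 0.05 in 36 of the 41 members, against 35.3% of all genes tested. Replicate 1 was highest in 35 of these, against 16.3% of all genes, and lowest in 1, SLC7A5, against 18.8%. Both libraries numbered 1 lay above all other 4 libraries in 34 members (22.4% of all genes) and below all other 4 in 0 (23% of all genes). In 19 of the 41, replicate 1 was higher than each of the other numbers by more than 1 on the log2 scale, which held for 1.59% of all genes. The median difference over the members was -0.93 for replicate 2 minus replicate 1, -0.90 for replicate 3 minus replicate 1 and -0.03 for replicate 3 minus replicate 2, beside -0.01, -0.01 and -0.01 over all genes tested. Within each genotype the library numbered 1 also had the fewest counts, the largest share of counts on mitochondrial genes (0.0618% beside 0.0333% and 0.0410% in WT, 0.0476% beside 0.0295% and 0.0411% in PARP3-/- cells) and the largest share in its 10 most counted genes (4.91% and 5.12%, beside 4.21% to 4.65% in the other 4). Their part in the result was not tested. The labels do not say what same-numbered libraries share (a culture day, an extraction or a run), so the source of the difference cannot be told from the number, and in bulk RNA fewer cells with a high level and less RNA in each cell cannot be told apart. The 5 members that did not pass were ATF5, PSAT1, PHGDH, SHMT2 and SLC3A2.

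**Figure D1:**
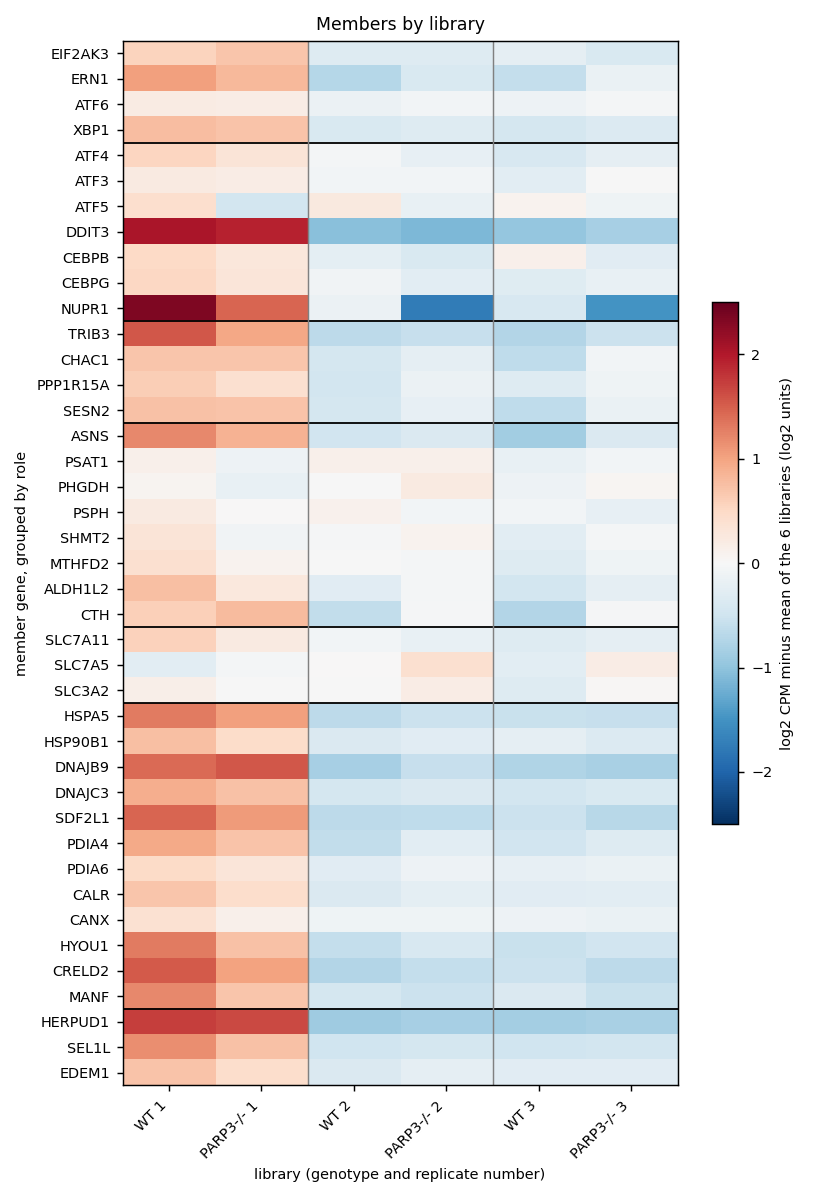
Each row is 1 of the 41 members, grouped by role with black lines between roles, and each column 1 library, ordered by replicate number. The colour gives log2 CPM minus the mean of the 6 libraries, and the 2 columns on the left, replicate 1 of WT and of PARP3-/- cells, are red in most rows, with ATF5, PHGDH and SLC7A5 among the exceptions.

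Among the sensors, all 4 genes passed the test of the replicate number with replicate 1 highest. Levels are given from here on in CPM for replicates 1, 2 and 3, in this order, first in WT and then in PARP3-/- cells. ERN1, the sensor IRE1, stood at 28.2, 8.53 and 9.24 CPM in WT and at 24.5, 10.7 and 12.3 CPM in PARP3-/- cells. EIF2AK3, the kinase PERK, stood at 58.9, 32.1 and 34.2 CPM in WT and at 64.2, 31.7 and 30.9 CPM in PARP3-/- cells. For both, replicates 2 and 3 of either genotype lay close together and far below replicate 1. XBP1, the target of IRE1, stood at 338, 152 and 145 CPM in WT and at 321, 158 and 156 CPM in PARP3-/- cells, and counts per gene do not tell its spliced from its unspliced form. ATF6 differed less, by -0.30 (replicate 2 minus 1) and -0.28 (3 minus 1) on the log2 scale (adjusted p = 0.00399).

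Of the 7 transcription factors, 6 passed, all with replicate 1 highest, and the size of the difference ranged widely among them. DDIT3, which encodes CHOP, a factor induced through ATF4 that promotes cell death under lasting ER stress, stood at 208, 24.3 and 25.9 CPM in WT and at 192, 23.2 and 28.3 CPM in PARP3-/- cells. These are ratios of 8.31 in WT and 7.44 in PARP3-/- cells between replicate 1 and the mean of replicates 2 and 3, and in the difference between replicate 1 and 2 DDIT3 was at place 3 of the 17144 genes tested, NUPR1 at 8, HERPUD1 at 12 and DNAJB9 at 28. NUPR1, a small nuclear stress protein, was low throughout, with 83, 17 and 14 counts in WT and 37, 6 and 6 counts in PARP3-/- cells, so its folds rest on few reads. ATF4 itself stood at 586, 389 and 306 CPM in WT and at 505, 352 and 345 CPM in PARP3-/- cells. Its partner CEBPG stood at 127, 83.0 and 71.9 CPM in WT and at 109, 73.7 and 78.1 CPM in PARP3-/- cells. CEBPB, another C/EBP factor, stood at 113, 67.6 and 87.7 CPM in WT and at 98.0, 61.5 and 66.2 CPM in PARP3-/- cells. In these 3 genes both libraries numbered 1 were the highest of the 6, at 1.43 to 1.69 times the mean of the other numbers of the same genotype. ATF3, a repressor induced under stress, differed by -0.27 and -0.34 (adjusted p = 0.0202), with replicate 1 highest. ATF5 did not differ by replicate number (adjusted p = 0.968) and is described with the genotypes below.

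The effectors of ATF4 passed in 4 of 4. TRIB3, a pseudokinase that binds ATF4 and dampens it, stood at 406, 87.7 and 83.1 CPM in WT and at 273, 92.8 and 96.0 CPM in PARP3-/- cells. SESN2, an inhibitor of mTORC1 that responds to leucine, stood at 65.9, 29.5 and 25.5 CPM in WT and at 65.5, 34.8 and 35.5 CPM in PARP3-/- cells. CHAC1, which breaks down glutathione, stood at 37.8, 17.2 and 15.2 CPM in WT and at 37.9, 20.1 and 22.3 CPM in PARP3-/- cells. PPP1R15A, the phosphatase subunit GADD34 that reverses the phosphorylation of eIF2, stood at 163, 78.3 and 86.0 CPM in WT and at 141, 97.2 and 99.8 CPM in PARP3-/- cells. In all 4 genes the lower of the libraries numbered 1 was above the highest of the other 4.

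In the synthesis of serine, one-carbon units, asparagine and cysteine, 5 of 8 enzymes passed, all with replicate 1 highest. ASNS, asparagine synthetase, stood at 16.5, 5.12 and 3.95 CPM in WT and at 13.2, 5.57 and 5.61 CPM in PARP3-/- cells, and CTH, which makes cysteine from cystathionine, at 22.8, 9.87 and 9.07 CPM in WT and at 26.0, 14.8 and 14.8 CPM in PARP3-/- cells. ALDH1L2, an enzyme of mitochondrial folate, stood at 138, 66.9 and 59.5 CPM in WT and at 98.5, 79.6 and 70.0 CPM in PARP3-/- cells. The levels of these 3 in replicate 1 were 1.32 to 3.63 times the mean of the other numbers of the same genotype. PHGDH, PSAT1 and PSPH catalyse the successive steps from 3-phosphoglycerate to serine. PHGDH stood at 626, 593 and 549 CPM in WT and at 532, 698 and 622 CPM in PARP3-/- cells (adjusted p = 0.424), PSAT1 at 184, 183 and 147 CPM in WT and at 154, 184 and 161 CPM in PARP3-/- cells (adjusted p = 0.0847), and PSPH at 71.4, 65.8 and 58.5 CPM in WT and at 61.3, 58.1 and 53.4 CPM in PARP3-/- cells (adjusted p = 0.0248). The ratios of replicate 1 to the mean of the other numbers were between 0.806 and 1.15 in these 3 genes. SHMT2 and MTHFD2, which carry serine carbon into mitochondrial folate, had ratios of 1.38 and 1.46 in WT and of 0.927 and 1.13 in PARP3-/- cells, and of the pair MTHFD2 passed (adjusted p = 0.0123). Listed pseudogene copies held 16.8% as many counts as ASNS (308 beside 1835 over the 6 libraries), and since copies can share reads the level of ASNS is uncertain to that degree. In 6 other members with such copies the share was at most 0.182%.

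The 3 transporter genes went different ways. SLC7A11, the light chain of the cystine and glutamate exchanger, stood at 436, 277 and 234 CPM in WT and at 340.4, 258 and 248 CPM in PARP3-/- cells, with both libraries numbered 1 highest. SLC7A5, the light chain of the LAT1 carrier of large neutral amino acids, stood at 1077, 1301 and 1075 CPM in WT and at 1246, 1705 and 1484 CPM in PARP3-/- cells. Replicate 2 was the highest of each genotype, and replicate 1 was lowest over both genotypes (adjusted p = 0.0137), though not below all other 4 libraries. SLC3A2, the heavy chain shared by both carriers, had ratios of replicate 1 to the other numbers of 1.22 in WT and 0.921 in PARP3-/- cells (adjusted p = 0.173).

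All 12 ER chaperones and folding enzymes passed with replicate 1 highest, and in all 12 both libraries numbered 1 were above the other 4. HSPA5 stood at 2401, 621 and 658 CPM in WT and at 1974, 672 and 649 CPM in PARP3-/- cells. HSP90B1, the ER chaperone GRP94, stood at 3484, 1608 and 1754 CPM in WT and at 2839, 1687 and 1636 CPM in PARP3-/- cells. HYOU1, which exchanges the nucleotide of BiP, stood at 1065, 288 and 293 CPM in WT and at 723, 328 and 312 CPM in PARP3-/- cells. For HSPA5 and HYOU1 replicates 2 and 3 of both genotypes fell within a narrow band. Among the J-domain partners of BiP, DNAJB9 (ERdj4) stood at 90.8, 19.1 and 20.2 CPM in WT and at 100.1, 23.0 and 19.4 CPM in PARP3-/- cells and DNAJC3 (p58IPK) at 374, 146 and 145 CPM in WT and at 329, 154 and 152 CPM in PARP3-/- cells. SDF2L1, which acts with BiP and ERdj3, stood at 195, 45.3 and 48.8 CPM in WT and at 149.5, 45.5 and 43.9 CPM in PARP3-/- cells. The 2 secreted or ER-resident proteins CRELD2 and MANF belong to the genes induced by ER stress. CRELD2 stood at 272, 56.5 and 64.8 CPM in WT and at 188, 62.4 and 60.3 CPM in PARP3-/- cells. MANF stood at 334, 106 and 113 CPM in WT and at 235, 99.5 and 97.8 CPM in PARP3-/- cells. Of the disulfide isomerases, PDIA4 stood at 1844, 624 and 681 CPM in WT and at 1569.8, 792 and 766 CPM in PARP3-/- cells and PDIA6 at 1313, 769 and 817 CPM in WT and at 1161, 859.7 and 838 CPM in PARP3-/- cells. CALR, the lectin chaperone calreticulin, stood at 1765, 851 and 896 CPM in WT and at 1483, 924 and 915 CPM in PARP3-/- cells. Its membrane-bound counterpart CANX had the smallest ratios of the role, 1.42 in WT and 1.21 in PARP3-/- cells (adjusted p = 0.00470). The median ratio of replicate 1 to the mean of replicates 2 and 3 over the 12 genes was 2.94 in WT and 2.21 in PARP3-/- cells, beside 1.01 and 1.00 over all genes tested. Summed over the 12 genes, the level was 15286, 6669 and 6991 CPM in WT and 12553, 7166 and 6955 CPM in PARP3-/- cells.

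The 3 genes of ER-associated degradation followed the chaperones. HERPUD1, a membrane protein of the HRD1 ubiquitin ligase complex, stood at 279, 46.0 and 46.9 CPM in WT and at 267, 47.5 and 48.3 CPM in PARP3-/- cells. SEL1L, the adaptor of that ligase, stood at 384, 122 and 121 CPM in WT and at 286, 126 and 125 CPM in PARP3-/- cells. EDEM1, which marks misfolded glycoproteins for disposal, stood at 249, 119 and 125 CPM in WT and at 208, 129.5 and 125 CPM in PARP3-/- cells. HERPUD1 had the largest ratios of the 3, 6.02 in WT and 5.57 in PARP3-/- cells. The 9 members with an ERSE or ERSE-II in the promoter window had ratios from 1.42 (CANX) to 6.02 (HERPUD1) in WT. The matched members with none of the 4 motifs searched had ratios in WT from 0.907 (SLC7A5) to 8.31 (DDIT3). Only exact matches were searched, so near matches were not counted.

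**Figure D2:**
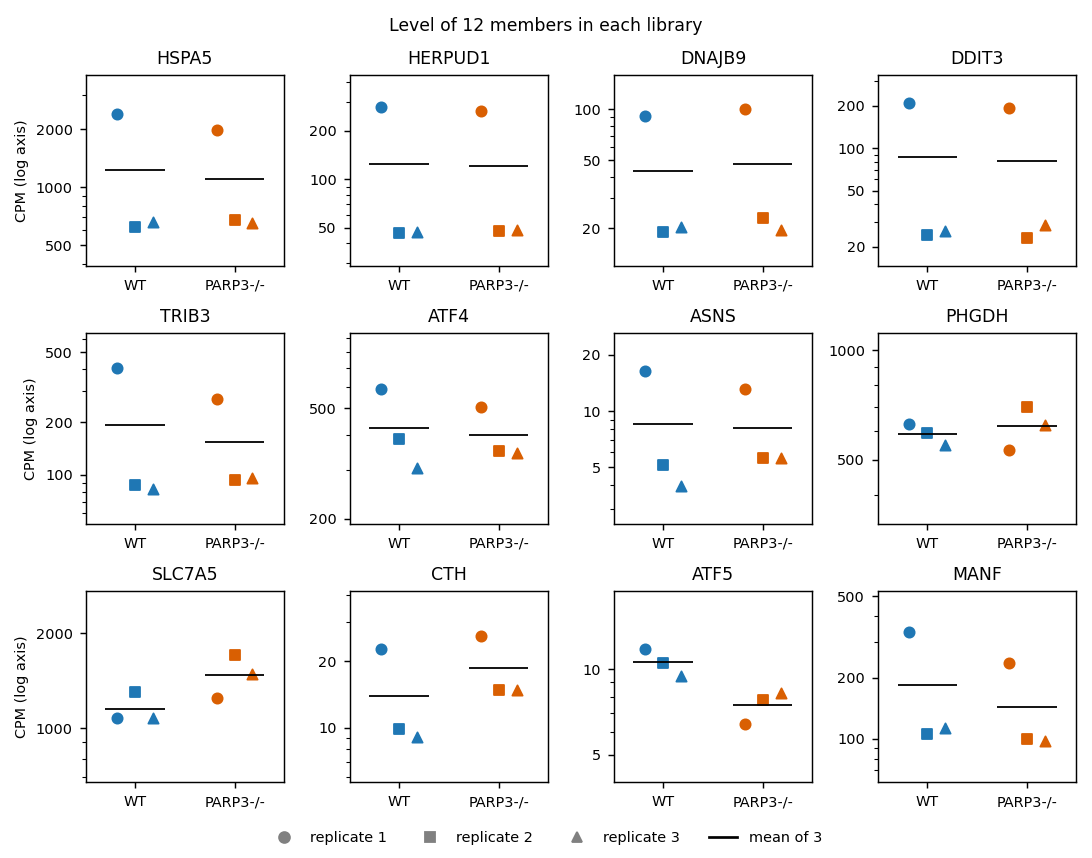
Each panel shows 1 of 12 members, with CPM on a log axis and 1 point per library, where the shape gives the replicate number, the colour the genotype and the bar the mean of 3 libraries. In HSPA5, HERPUD1, DNAJB9, DDIT3 and TRIB3 the circles of replicate 1 stand apart at the top in both genotypes, whereas in PHGDH, SLC7A5 and ATF5 they do not.

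The excess in replicate 1 was not of equal size in both genotypes. Its ratio to the mean of replicates 2 and 3 was larger in WT than in PARP3-/- cells in 37 of the 41 members, with medians of 2.07 in WT and 1.71 in PARP3-/- cells, beside 1.01 and 1.00 over all genes tested. The exceptions were EIF2AK3, CEBPB, NUPR1 and DNAJB9. The share of all genes with a larger ratio in WT was not counted. Read as a difference between genotypes within each replicate number, 36 of 41 members were lower in PARP3-/- cells in pair 1, where 50.3% of all genes were. In pair 2, 29 of 41 were higher, and in pair 3 also 29, where the share of all genes was not counted. The median difference of PARP3-/- minus WT was -0.23 on the log2 scale in pair 1, 0.08 in pair 2 and 0.09 in pair 3, beside -0.00, -0.00 and 0.01 over all genes. Pair 1 had the lowest of the 3 differences in 37 of the 41 members, and in 36.2% of all genes. The counts of the ratios and of pair 1 all draw on the same libraries numbered 1, so they are not separate results. With 1 library per genotype and replicate number, this difference between the pairs could not be tested.

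**Figure D3:**
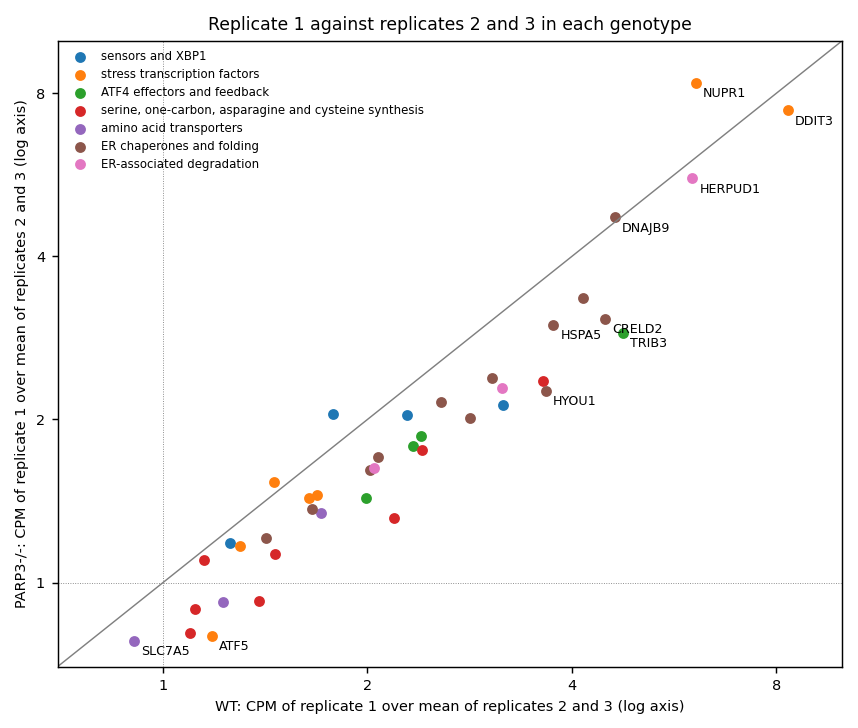
Each point is a member, with the ratio of replicate 1 to the mean of replicates 2 and 3 in WT on the horizontal and in PARP3-/- cells on the vertical axis, both on log scales and coloured by role. Most points lie above 1 on both axes and below the grey line of equal ratios, with DDIT3, NUPR1 and HERPUD1 at the upper right.

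Without the libraries numbered 1, replicates 2 and 3 differed in 6 of the 41 members (ATF4, CEBPB, PSAT1, SHMT2, SLC7A5 and SLC3A2), against 2.77% of all genes tested (edgeR's quasi-likelihood test with genotype in the model). Not one of the ER chaperones or of the genes of ER-associated degradation was among them. At a share of 2.77% of all genes, lists this short can hold none by their size alone, so this does not set the ER genes apart. The differences of replicate 3 minus replicate 2 within the 41 members, taken from the model of all 6 libraries, lay between -0.25 (PSAT1) and 0.24 (CEBPB) on the log2 scale, and within the 12 ER chaperones they were at most 0.0807 in size. In the fit without the libraries numbered 1 the largest were 0.254 in size for CEBPB and, among the chaperones, 0.0858 for CRELD2.

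Between the genotypes, no member passed the test on genotype alone. At an adjusted p under 0.05, 0 of the 41 members were called in edgeR's quasi-likelihood test, against 4.7% of all genes, while 2 (ATF5 and SLC7A5) had an unadjusted p under 0.05, against 16.3% of all genes, and DESeq2 called 1, ATF5, as lower, against 5.09%. The standard error of the log2 fold change had a median of 0.351 over the members and of 0.157 over all genes, so this comparison was coarser for the members than for most genes. With the replicate number in the model the median standard error of the members was 0.0749, beside 0.0754 over all genes. This fit called 5 members lower in PARP3-/- cells (ATF5, CEBPB, NUPR1, PSPH and MANF) and 2 higher (CTH and SLC7A5), against 12.5% of all genes lower and 11.8% higher, or 24.3% in either direction. The members called lower were close to the share of all genes, and those called higher were below it. In either direction, the members called were a smaller share than that of all genes with all 6 libraries. This turned round without the libraries numbered 1. Leaving out WT replicate 1 alone raised the members called higher from 2 to 11 (13% of all genes), and leaving out PARP3-/- replicate 1 alone raised them to 12 (13.8%). In this model a library without its partner of the same number adds nothing to the genotype difference. Both fits thus draw it from the other replicate numbers, as does the fit without both libraries numbered 1, and are not separate results. The median log2 fold change of the 41 members was -0.07 on genotype alone and -0.03 with the replicate number, beside -0.01 and -0.00 over all genes. Of the glioma line markers, S100B was lower in PARP3-/- cells, at 78.1 to 105 CPM beside 147 to 234 CPM in WT (log2 fold change -1.06, adjusted p = 0.0256 in edgeR), and SOX2 and OLIG2 had log2 fold changes of -0.32 and -0.53, called with the replicate number only (adjusted p = 0.00516 and 0.00152). Their part in the genotype results was not tested.

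ATF5, a factor translated under stress much as ATF4 is (chromosome 19, 49928702 to 49933935 in hg38), stood at 11.8, 10.5 and 9.44 CPM in WT and at 6.41, 7.81 and 8.23 CPM in PARP3-/- cells. Its 3 WT libraries were all above its 3 PARP3-/- libraries, at 10.6 ± 1.17 CPM in WT and 7.48 ± 0.956 CPM in PARP3-/- cells (SD, n = 3), and it was the only member whose genotypes did not overlap, which held for 22.8% of all genes. The log2 fold change was -0.50 (SE 0.14, adjusted p = 0.120) on genotype alone and -0.49 (SE 0.12, adjusted p = 0.0123) with the replicate number. SLC7A5 (chromosome 16, 87830023 to 87869488) was higher in PARP3-/- cells within each of the 3 pairs, by 0.21, 0.39 and 0.47 on the log2 scale, with a log2 fold change of 0.36 (SE 0.07, adjusted p = 0.00292) with the replicate number. CTH (chromosome 1, 70411218 to 70439851) was likewise higher in each pair, by 0.19, 0.59 and 0.71, with a log2 fold change of 0.48 (SE 0.10, adjusted p = 0.00454). For both transporter and enzyme, the smallest difference was that of pair 1.

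The other 4 genes called with the replicate number were lower by less, apart from NUPR1. MANF was lower in each pair (-0.50, -0.09 and -0.20), with a log2 fold change of -0.27 (SE 0.07, adjusted p = 0.0209). CEBPB was lower in each pair (-0.21, -0.14 and -0.41), with a log2 fold change of -0.25 (SE 0.06, adjusted p = 0.0106). PSPH was lower by 0.22, 0.18 and 0.13 in the 3 pairs, and its log2 fold change was -0.18 (SE 0.05, adjusted p = 0.0234). NUPR1 had a log2 fold change of -1.04 (SE 0.26, adjusted p = 0.0157), on the few counts given above. When other settings were tried in the fit with the replicate number at the same limit of 0.05, ATF5, CTH and SLC7A5 were called in 13 of 13 alternatives, MANF in 12 of 13, CEBPB in 10 of 13, NUPR1 in 7 of 12 and PSPH in 6 of 13. Of these alternatives, those without 1 or both libraries of a number draw the genotype difference from the same libraries, so they are not independent. CEBPB was not called once 1 or both libraries numbered 3 were left out, at a log2 fold change of -0.17 without both, and MANF not once both were left out. PSPH was lost without 1 or both libraries numbered 2 or 3, and NUPR1 without WT replicate 1 and without 1 or both libraries numbered 2. DESeq2 with the replicate number called neither PSPH nor NUPR1. When a change beyond 1 on the log2 scale and an adjusted p below 0.001 were both required, 0 of the 7 were called. In all, 9 of the 41 members had the same sign in all 3 pairs, against 54.3% of all genes.

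**Figure D4:**
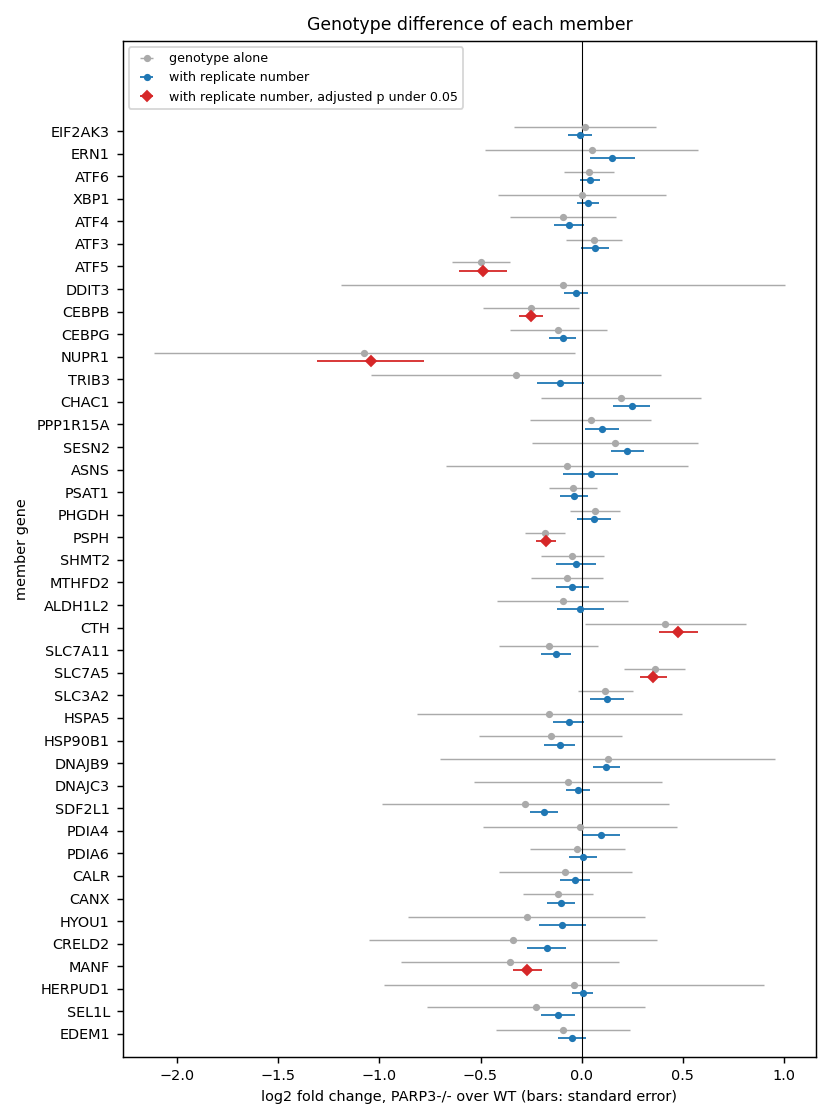
For each member the log2 fold change of PARP3-/- over WT is shown with its standard error (SE), in grey from the fit on genotype alone and in colour from the fit with the replicate number. The 7 red diamonds are the members at an adjusted p under 0.05 in the second fit, and the grey bars of DDIT3, HERPUD1, DNAJB9 and NUPR1 are the widest.

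The genotype result depended on the libraries numbered 1. In WT and PARP3-/- replicates 2 and 3 alone, with genotype alone in the model, 8 of the 41 members were higher in PARP3-/- cells (ERN1, CHAC1, PPP1R15A, SESN2, ALDH1L2, CTH, SLC7A5 and PDIA4), against 8.91% of all genes, and 0 were lower, against 10.1%. The log2 fold changes were 0.64 for CTH, 0.42 for SLC7A5, 0.38 for CHAC1, 0.37 for ERN1, 0.35 for SESN2, 0.26 for PPP1R15A, 0.25 for PDIA4 and 0.24 for ALDH1L2. With the replicate number as a term as well, 13 members were higher, those 8 with TRIB3, PHGDH, SHMT2, SLC3A2 and HYOU1 (14.5% of all genes), and 5 were lower, the same 5 as with all libraries (15.4% of all genes), which is 18 of 41 against 29.9% of all genes in either direction. These fits rest on 2 libraries per genotype. The ER chaperones PDIA4 and HYOU1 were among the genes called higher, whereas HSPA5 had a log2 fold change of 0.04, HSP90B1 of -0.02 and HERPUD1 of 0.04 in replicates 2 and 3, none of them called. A p that misses the threshold does not show that a gene did not differ.

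Other genes of the same pathways were read from lists of 102 genes, of which 100 were tested (CREB3L1 and CREB3L3 had too few counts). The replicate number passed in 68 of the 100, with replicate 1 highest in 48 and lowest in 20, beside 35.3%, 16.3% and 18.8% of all genes. The further ER lists and the heat shock list went opposite ways. Of 17 further genes of ER folding, translocation and glycosylation, 16 passed, all with replicate 1 highest. DNAJB11, the BiP partner ERdj3, stood at 199, 69.8 and 77.5 CPM in WT and at 145, 67.0 and 64.8 CPM in PARP3-/- cells, SEC24D of the COPII coat at 90.7, 42.5 and 40.1 CPM in WT and at 92.6, 45.8 and 48.1 CPM in PARP3-/- cells, and the disulfide isomerase PDIA3 at 729, 355 and 402 CPM in WT and at 699.7, 440.0 and 436 CPM in PARP3-/- cells. Of 11 further genes of ER-associated degradation, 8 passed, all with replicate 1 highest. DERL3 stood at 5.94, 0.667 and 0.732 CPM in WT and at 5.81, 0.763 and 1.01 CPM in PARP3-/- cells, the ubiquitin ligase SYVN1 (HRD1) at 91.2, 24.9 and 26.1 CPM in WT and at 75.5, 25.1 and 26.5 CPM in PARP3-/- cells, and DERL2 at 87.8, 53.7 and 52.3 CPM in WT and at 90.1, 54.1 and 50.9 CPM in PARP3-/- cells. In DERL3 and SYVN1 the libraries numbered 1 were several times above the other 4.

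Of 11 genes of the cytosolic and mitochondrial heat shock response, 9 passed, and in all 9 replicate 1 was lowest. HSP90AA1, the inducible cytosolic HSP90, stood at 928, 1734 and 1561 CPM in WT and at 1193, 1884 and 1775 CPM in PARP3-/- cells. The small heat shock protein HSPB1 stood at 68.3, 122 and 128 CPM in WT and at 95.6, 144 and 151 CPM in PARP3-/- cells. HSPH1, a cytosolic relative of HYOU1, stood at 99.4, 188 and 171 CPM in WT and at 99.7, 154 and 168 CPM in PARP3-/- cells. The median ratio of replicate 1 to the other numbers over the 11 genes was 0.621 in WT and 0.694 in PARP3-/- cells. HSPA1A and HSPA1B, 2 of the 9, are near-identical copies between which reads could be split.

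Of 13 genes of eIF2, its kinases, its exchange factor eIF2B and its phosphatase, 5 passed, all with replicate 1 lowest. EIF2S1, the subunit of eIF2 that is phosphorylated, stood at 159, 246 and 226 CPM in WT and at 153, 209 and 204 CPM in PARP3-/- cells, PPP1CA at 311, 412 and 375 CPM in WT and at 335, 444 and 410.4 CPM in PARP3-/- cells, and EIF2AK4, the kinase GCN2, at 196, 261 and 245 CPM in WT and at 259.6, 311 and 304 CPM in PARP3-/- cells. Of 20 cytosolic aminoacyl-tRNA synthetases, 11 passed, 6 with replicate 1 highest and 5 with replicate 1 lowest. WARS stood at 582, 268 and 261 CPM in WT and at 362, 239.9 and 229.5 CPM in PARP3-/- cells, AARS at 875, 448 and 418 CPM in WT and at 682, 446 and 429 CPM in PARP3-/- cells, and SARS at 513, 340.4 and 298 CPM in WT and at 389, 333 and 321 CPM in PARP3-/- cells. All 3 were highest in replicate 1 of their genotype. Of 7 further transporters linked to ATF4, 6 passed with replicate 1 highest, among them SLC6A9 at 42.4, 20.1 and 17.1 CPM in WT and at 29.6, 20.5 and 19.2 CPM in PARP3-/- cells, SLC43A1 at 10.6, 5.41 and 5.80 CPM in WT and at 4.65, 3.64 and 2.81 CPM in PARP3-/- cells, and SLC1A4 at 608, 348 and 389 CPM in WT and at 435, 318 and 322 CPM in PARP3-/- cells. Of 16 further effectors linked to ATF4, 11 passed, 10 with replicate 1 highest and 1 with replicate 1 lowest, SHMT1. GDF15, a secreted stress cytokine, stood at 164, 24.2 and 35.5 CPM in WT and at 122, 42.9 and 49.2 CPM in PARP3-/- cells. VEGFA, the vascular growth factor, stood at 162, 64.6 and 57.7 CPM in WT and at 101, 58.7 and 62.8 CPM in PARP3-/- cells, and BBC3, the cell death protein PUMA, at 11.6, 5.58 and 6.24 CPM in WT and at 11.4, 6.96 and 7.20 CPM in PARP3-/- cells. Of the 5 genes tested of ATF6-like factors and their proteases, 2 passed with replicate 1 highest, CREB3L2 and ATF6B.

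**Figure D5:**
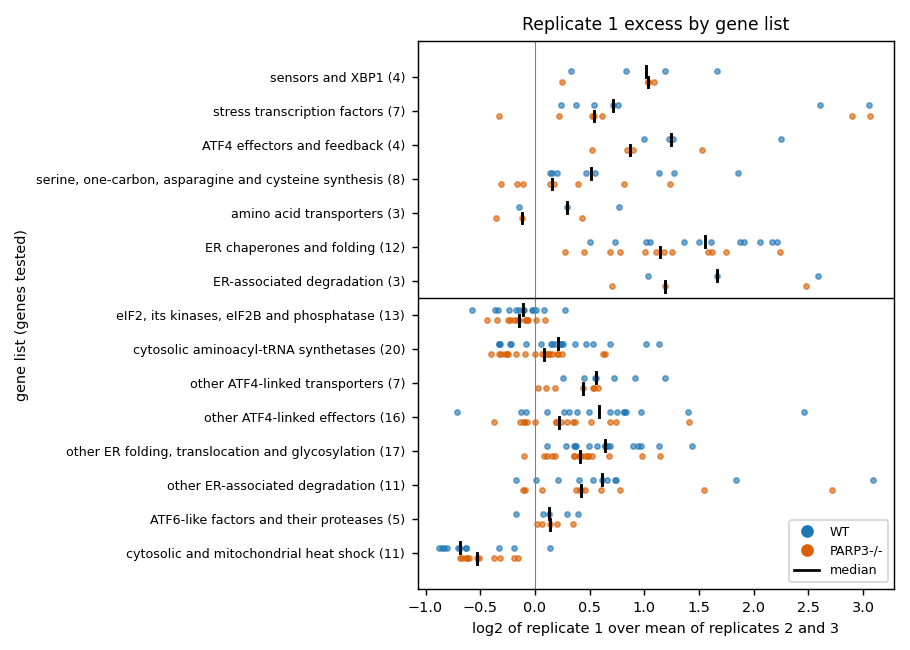
Each point is a gene, placed by the log2 ratio of replicate 1 to the mean of replicates 2 and 3 in WT (blue) or in PARP3-/- cells (orange), with black bars for the median of each list. The upper 7 rows are the roles of the 41 members and the lower 8 the other pathway lists, where most of the heat shock genes lie left of 0 and most of the ER genes right of it.

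By genotype, 1 of the 100 genes was called in edgeR's quasi-likelihood test, against 4.7% of all genes. ALDH18A1, an enzyme of proline synthesis, stood at 147, 157 and 155 CPM in WT and at 109.8, 116 and 119 CPM in PARP3-/- cells, lower in every PARP3-/- library than in every WT library, with a log2 fold change of -0.41 (SE 0.07, adjusted p = 0.0259). It was called without WT replicate 1, but not without any of the other 5 libraries, where its log2 fold change lay between -0.43 and -0.37 (adjusted p from 0.0714 to 0.143 in edgeR). With the replicate number in the model, 14 were lower and 5 higher, against the 12.5% and 11.8% of all genes given above. SLC43A1, a carrier of large neutral amino acids, had a log2 fold change of -0.94 (SE 0.13, adjusted p = 0.000476) in that fit, and JDP2, a repressor of the AP-1 family, of -0.67 (SE 0.10, adjusted p = 0.000742). The largest changes upward were those of EIF2AK4, at 0.32 (SE 0.05, adjusted p = 0.00123), and HSPB1, at 0.32 (SE 0.06, adjusted p = 0.00267).

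Levels can be compared between members per length of transcript, as CPM divided by the median transcript length in kilobases that the deposited table gives. In WT, HSP90B1 was highest at 3135 ± 1434 CPM per kilobase (SD, n = 3), followed by CANX (2953 ± 624), PDIA4 (1661 ± 1090) and CALR (1499 ± 660), and the lowest were NUPR1 (1.68 ± 1.84), ASNS (5.36 ± 4.35), CTH (11.6 ± 6.44) and SESN2 (11.7 ± 6.45). In this order of 41, each of the 40 pairs of neighbours had overlapping WT libraries, so that no gene stood apart from the next. The order depends on the length used. Between the deposited table and GENCODE 44, 7 members differed by over 2-fold in median transcript length, among them HSP90B1, CANX, PDIA4 and CALR. With the GENCODE 44 lengths, HSP90B1 was again first and CALR was at place 2. PDIA4 was at place 6, CANX at place 7, and HYOU1 moved from place 6 to 18. The 10 lowest were the same genes with both lengths.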

How the data were processed

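The authors trimmed single-end reads of ribosome-depleted, stranded libraries with cutadapt 1.10, removed reads on ribosomal RNA and spike-ins with Bowtie2 2.2.8, aligned the rest to hg38 with STAR 2.5.3a and counted them per Ensembl gene with HTSeq 0.6.1p1 in union mode (versions from the methods and the submitters' processing notes). Whether the counting used strand is not given in the sources used here. Union mode leaves out reads on overlapping genes, and reads shared with near-identical copies can be lost or split. The labels name polyA RNA, against the total RNA of the methods. The deposited counts, not normalized, and the median transcript lengths listed beside them are the only values used. The 12 columns of normalized values per library and the 3 columns of the authors' own comparison (log2 fold change, p-value and adjusted p-value) were not used.

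Counts were analysed in R 4.3.3 with edgeR 4.0.16 (TMM, filterByExpr with a minimum count of 10, quasi-likelihood test, Benjamini-Hochberg adjustment over the 17144 genes tested). Genotype was fitted alone and with the replicate number as a term (the replicate block). The replicate terms were tested together in the second model. A call is an adjusted p under 0.05. Standard errors (SE) are the size of the fold change over the square root of F. CPM are on TMM-scaled library sizes, and differences within pairs used log2 after adding 0.5 counts. At these depths 3 counts, taken as the smallest number told from no reads, correspond to 0.0652 to 0.101 CPM, for counting error only.

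Same-numbered libraries deviated together over all genes tested, most clearly those numbered 1. The correlation of their deviations from the genotype means was 0.635 for number 1, 0.465 for number 2 and 0.208 for number 3, and -0.584 to 0.361 between different numbers. The libraries numbered 3 correlated more with number 2 of the other genotype (0.361 for PARP3-/- 3 and 0.234 for WT 3) than with each other. Deviations were taken from a mean of 3 libraries, so a deviation shared by number 1 also moves numbers 2 and 3 together. The value for number 2 is thus not separate evidence of pairing. The numbers were taken to pair the samples, which for number 3 rests on the labels and not on these values. The labels do not state what a number stands for.

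The 41 members, the roles and the pathway lists were chosen with earlier results of these data known. By rule, called members were given per library (at most 30, by smallest p), with the others by range. ATF5, PSPH, PHGDH, PSAT1 and SLC7A5 were added after their values were seen. Of each pathway list, at most the 3 called genes of largest genotype difference and the 3 of largest replicate difference were named, and SHMT1 and the pair HSPA1A and HSPA1B were named outside this rule.

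Alternatives were DESeq2 1.42.0, median-of-ratios size factors, no filter, a mean count of at least 50, an adjusted p under 0.001 with a log2 fold change beyond 1, the replicate block, left-out libraries and, for levels per kilobase, GENCODE 44 lengths. Their combinations with the replicate block were chosen after seeing the data. The procedure was tested on simulated counts of 1 fixed spread, with few genes changed by genotype or by a replicate number other than 1. The wide difference of replicate 1 seen here was not simulated. Motifs were searched with Python 3.11.15.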

Additional observations from a re-analysis of the deposited data

How the results depend on the processing

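The number of members called by replicate number stood at 36 of 41, at 33 with DESeq2, 39 with no filter on low counts and 19 with an adjusted p under 0.001 and a log2 difference beyond 1, and it ran from 6 to 40 over the left-out libraries, with 6 once both libraries numbered 1 were left out. Of the 36 members, 32 were called with DESeq2, the other size factors, both filters and each single library left out, while ATF3, NUPR1, PSPH and SLC7A5 were each lost in at least 1 of these. For the pathway lists, 68 genes became 6 under the stricter limit, and 5 to 77 with libraries left out, the 5 being without both libraries numbered 1. By genotype alone, 0 members were lower, against 1 with DESeq2 and 5 with the replicate block, and 0 were higher, against 2 with the replicate block and 0 to 8 with libraries left out, the 8 being without both libraries numbered 1. Of these 8, ALDH1L2 (0.24) and PDIA4 (0.25) changed sign in that fit. Over all left-out libraries their log2 fold changes ran from -0.31 to 0.39 and from -0.43 to 0.68. Members not called in that fit changed sign as well. Among them were TRIB3 (-0.32 to 0.14), HYOU1 (-0.27 to 0.14), SEL1L (-0.23 to 0.04) and, the other way, EIF2AK3 (0.02 to -0.08). In the pathway lists, 1 gene was lower, against 3 with DESeq2, 0 under the stricter limit, 14 with the replicate block and 0 to 9 with libraries left out. Of the single libraries, leaving out WT replicate 1 alone kept this call. Higher were 0 genes, against 5 with the replicate block and 0 to 12 with libraries left out. With the replicate block, the 5 lower members became 3 with DESeq2, 0 under the stricter limit and 2 to 5 with libraries left out (3 without WT or PARP3-/- replicate 3, 2 without both). The 2 higher members became 4 with no filter, 0 under the stricter limit and 2 to 13 with libraries left out (11 without WT replicate 1, 12 without PARP3-/- replicate 1). The 14 lower pathway genes became 0 under the stricter limit and 9 to 18 with libraries left out. The 5 higher ones became 12 with no filter, 0 under the stricter limit and 2 to 21 with libraries left out (19 without WT replicate 1, 20 without PARP3-/- replicate 1, 2 without WT or PARP3-/- replicate 3). With the replicate block, a library whose partner was left out adds nothing to the genotype difference. Counts without 1 or both libraries of a number therefore rest on the same pairs. The cause of the changes in these counts was not otherwise tested.

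PARP3 passed the threshold with the replicate block (-0.39) and its log2 fold change ran from -0.62 to -0.15 with libraries left out, the latter without both libraries numbered 1 and -0.20 without WT replicate 1. The replicate block changed no call but those given here and in the text. Fits without a library leave a genotype with 2 libraries, and those without a replicate number leave 4 in all. The precision of NUPR1 is limited by its counts, 6 to 83 per library.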
